A study of Homo sapiens with 8 samples.

Results

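The genes for the 5 somatostatin receptors, SSTR1 to SSTR5, were followed by name and Ensembl identifier among the 58233 genes of the count table, and all 5 were found in it. RNA came from HUES8 cells, an established line of human embryonic stem cells, differentiated towards pancreatic islet cells and taken at stage 5. The groups were buds (n = 3, flasks 264, 270 and 274), small structures shaken loose from the spheroids and filtered off, and bulks (n = 5, flasks 252, 261, 264, 270 and 274), the spheroids themselves. All 8 libraries share that line and stage, so the spread between them is a spread between flasks of 1 line. The comparison asks how the outgrowths differ in RNA from the spheroids they left.

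Somatostatin is a short peptide hormone made by delta cells of the islet, by gut endocrine cells and by many neurons. Its receptors are G protein-coupled receptors of the plasma membrane that couple mainly to inhibitory G proteins. Through these they lower cyclic AMP, open G protein-gated potassium channels and close voltage-gated calcium channels, and in the islet they restrain the release of insulin and glucagon. By sequence and drug binding the family falls into SSTR2, SSTR3 and SSTR5, which bind octreotide-like analogs well, and SSTR1 and SSTR4, which bind them poorly.

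Each receptor has its coding sequence in 1 exon. In GRCh38 with GENCODE release 44, SSTR2 lies on chromosome 17 from 73165010 to 73176633 and SSTR5 on chromosome 16 from 1072747 to 1081454. SSTR3 lies on chromosome 22 from 37204237 to 37212477, on the minus strand. SSTR1 lies on chromosome 14 from 38207904 to 38213067 and SSTR4 on chromosome 20 from 23035312 to 23039237. Coding lengths ran from 1092 bases (SSTR5) to 1254 bases (SSTR3), whereas annotated exons together ran from 2705 bases (SSTR5) to 7854 bases (SSTR2).

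The 250 bases before the RefSeq start of SSTR2 and of SSTR1 are shown because these were the most abundant receptors, and 1 of them rose in buds while the other did not pass the test. The windows are chr17:73164760-73165009 and chr14:38207654-38207903, both on the plus strand of GRCh38.p14. Capitals mark matches to 7 short motifs searched on both strands. These were the cyclic AMP response element TGACGTCA, its shorter core written TGACG and contained in it, the GC box read as GGGCGG, the TATA box sequence TATAAA, the E-box CAGCTG, a second E-box with the letters CACGTG, and the homeodomain core given by TAATTA.
SSTR2: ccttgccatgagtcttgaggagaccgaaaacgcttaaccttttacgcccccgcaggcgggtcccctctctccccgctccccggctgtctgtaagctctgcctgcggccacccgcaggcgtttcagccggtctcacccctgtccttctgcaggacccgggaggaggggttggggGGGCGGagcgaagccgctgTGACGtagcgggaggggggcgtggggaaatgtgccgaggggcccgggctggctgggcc
SSTR1: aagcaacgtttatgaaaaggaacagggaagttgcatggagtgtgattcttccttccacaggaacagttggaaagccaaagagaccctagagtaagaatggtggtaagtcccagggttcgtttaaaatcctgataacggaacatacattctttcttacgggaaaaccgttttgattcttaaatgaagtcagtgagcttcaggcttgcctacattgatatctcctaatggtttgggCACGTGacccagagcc

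The SSTR2 window held 69.2% G and C and the SSTR1 window 43.6%, against a median of 58.0% over 35116 RefSeq windows of the same length. SSTR2 had 1 GGGCGG, the box that Sp factors bind, which 42.6% of all windows hold on either strand. It also had 1 TGACG, the core of the cyclic AMP response element, which 21.2% of windows hold. SSTR1 had 1 CACGTG, found in 6.34% of windows. The other 4 motifs (TGACGTCA in 1.65% of windows, TATAAA in 10.7%, CAGCTG in 14.0% and TAATTA in 4.35%) had no match in either window. A match describes letters only.

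SSTR2 and SSTR5 were about 5-fold to 6-fold higher in buds, SSTR3 was close to 2-fold higher, SSTR1 did not pass the test and SSTR4 was barely detected. Of the 5 receptors, 4 passed the expression filter, and 3 of those 4 rose with none lower, where 47.2% of all 16641 genes tested passed, 23.4% higher and 23.8% lower (edgeR quasi-likelihood test, Benjamini-Hochberg adjustment over all genes tested, threshold 0.05). The median log2 fold change, buds over bulks, was 1.62 over the 4 tested receptors and -0.02 over all genes tested. In each of the 3 that rose, every bud lay above every bulk, as in 23.5% of all genes tested (every bud below every bulk, 23.7%). These calls are from the fit without flask. With flask as a block SSTR2 and SSTR5 still rose (edgeR adjusted p = 0.00909 and 0.0036) and SSTR3 did not pass (0.0515), where 19.5% of all genes rose.

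SSTR2, the receptor that carries most of the inhibition of insulin and glucagon release by somatostatin in human islets, had 721, 500.0 and 699 CPM in the buds of flasks 264, 270 and 274, against 92.7, 78.4, 53.1, 167 and 148 CPM in the bulks of flasks 252, 261, 264, 270 and 274. CPM are counts per 10 to the power 6 of TMM-scaled library size. The lowest bud stood well above the highest bulk, and among bulks flasks 270 and 274 were high and flask 264 low. The means were 640.0 ± 122 CPM in buds (SD, n = 3) and 108 ± 48.1 CPM in bulks (SD, n = 5). The log2 fold change was 2.56 ± 0.32 (SE, 95% interval 1.86 to 3.27, edgeR adjusted p = 0.000115), above that of 96.8% of genes tested. Within flasks, bud minus bulk was 3.76, 1.58 and 2.23 on the log2 scale in flasks 264, 270 and 274.

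The long non-coding gene ENSG00000264860 shares 279 exon bases with SSTR2 on the same strand. It held 2.51 counts in the bud of flask 264 and 1.28 in the bulk of flask 274, the libraries in which the SSTR2 count was not whole, and 0 in the other 6.

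SSTR5, a receptor of islet and pituitary endocrine cells, had 15.5, 11.1 and 10.3 CPM in the buds of flasks 264, 270 and 274, against 1.85, 3.06, 3.95, 2.47 and 1.28 CPM in the bulks in flask order. The counts behind these ran from 115 to 128 in buds and from 12 to 27 in bulks. The groups did not overlap, and flask 264 was the highest bulk here although it was the lowest bulk for SSTR2. The log2 fold change was 2.30 ± 0.32 (SE, 95% interval 1.60 to 3.00, edgeR adjusted p = 0.000212). Bud minus bulk was 1.95, 2.15 and 2.95 in the 3 flasks.

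SSTR5-AS1, a long non-coding gene on the opposite strand whose span runs into that of SSTR5 (chromosome 16, 1064087 to 1078731), rose with it. It had 25.8, 12.5 and 13.2 CPM in buds, against 1.85 to 3.31 CPM in bulks with a median of 2.80. Its log2 fold change was 2.67 ± 0.30 (edgeR adjusted p = 6.64e-05). The annotated exons of the pair share 0 bases. Whether strand was used in counting is not given in the sources used here, so reads outside those exons cannot be assigned to either with certainty.

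SSTR3, known for its place in the membrane of primary cilia, had 9.44, 7.91 and 7.06 CPM in the buds of flasks 264, 270 and 274, against 3.57, 3.85, 4.12, 6.04 and 3.31 CPM in the bulks in flask order. The bulk of flask 270 came close to the lowest bud and the other 4 bulks lay lower. The log2 fold change was 0.95 ± 0.24 (SE, 95% interval 0.41 to 1.49, edgeR adjusted p = 0.00889). With flask as a block it was 0.87 and did not pass (edgeR adjusted p = 0.0515). Bud minus bulk was 1.18, 0.39 and 1.08 in flasks 264, 270 and 274, higher in the bud of each.

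SSTR1, which in human islets is found in beta cells among others, had 72.4, 42.8 and 32.4 CPM in the buds of flasks 264, 270 and 274, against 43.5, 19.8, 8.90, 54.1 and 40.4 CPM in the bulks in flask order. The groups overlapped, and the bulks spread from 8.90 CPM in flask 264 to 54.1 CPM in flask 270. The log2 fold change was 0.54 ± 0.46 (SE, edgeR adjusted p = 0.359), with a 95% interval from -0.48 to 1.57 that leaves room for a small fall and for a rise of the size seen in SSTR3. Bud minus bulk was 3.01 in flask 264 but -0.34 and -0.32 in flasks 270 and 274. Without the bulk of flask 264 the log2 fold change was 0.31 and without the bud of flask 264 it was 0.16.

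SSTR4, known mainly from brain and lung, had 1 count in the bud of flask 264 and 1 in the bulk of flask 261, and 0 in the other 6 libraries. A limit of 3 counts corresponds to 0.241 to 0.405 CPM in buds and 0.275 to 0.494 CPM in bulks, for counting error only. With 1 count in each group, a difference could not be tested at this depth. A two-sided exact permutation test of log2 CPM, with 0.5 added to each count, gave p = 0.911 (n = 3 and 5). In the 6 libraries with 0 counts that log2 CPM depends on library size alone, so the test cannot decide.

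**Figure D1:**
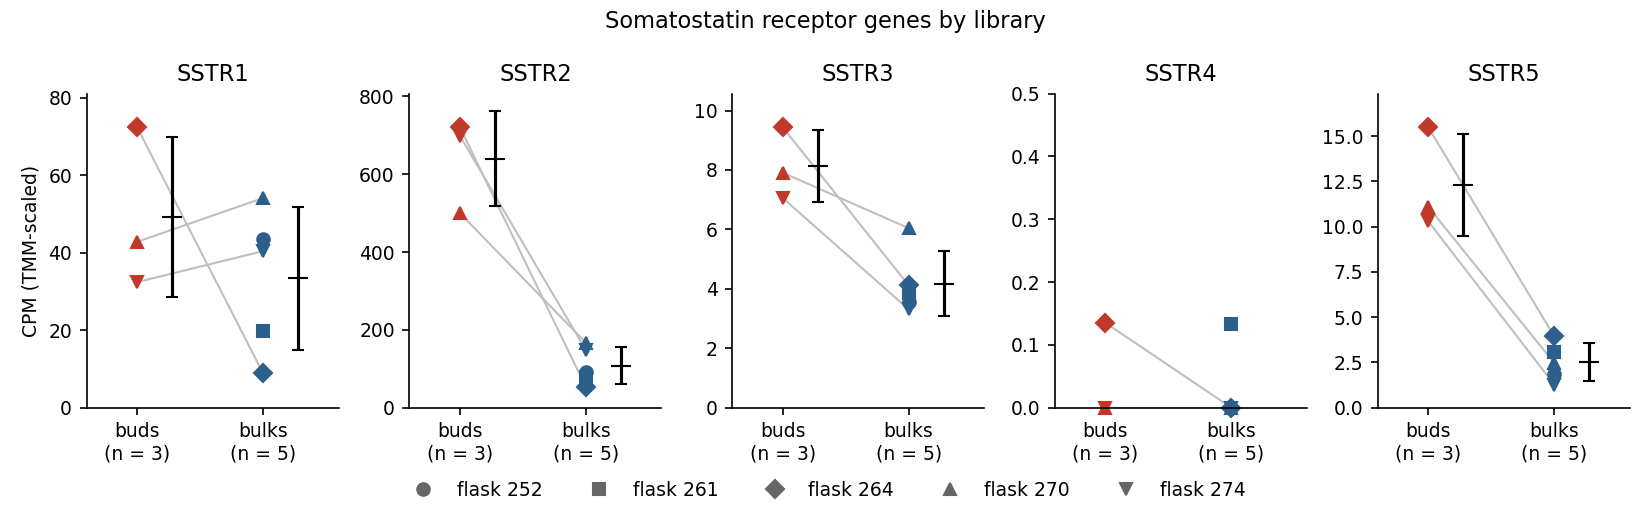
TMM-scaled CPM of the 5 receptor genes in 3 buds (left, red) and 5 bulks (right, blue), with a panel and a linear axis for each gene. Symbols mark flasks, grey lines join bud and bulk of a flask, and black bars give mean and SD (none for SSTR4); buds lie above all bulks for SSTR2, SSTR3 and SSTR5, while SSTR1 overlaps and SSTR4 has 2 libraries above 0.

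**Figure D2:**
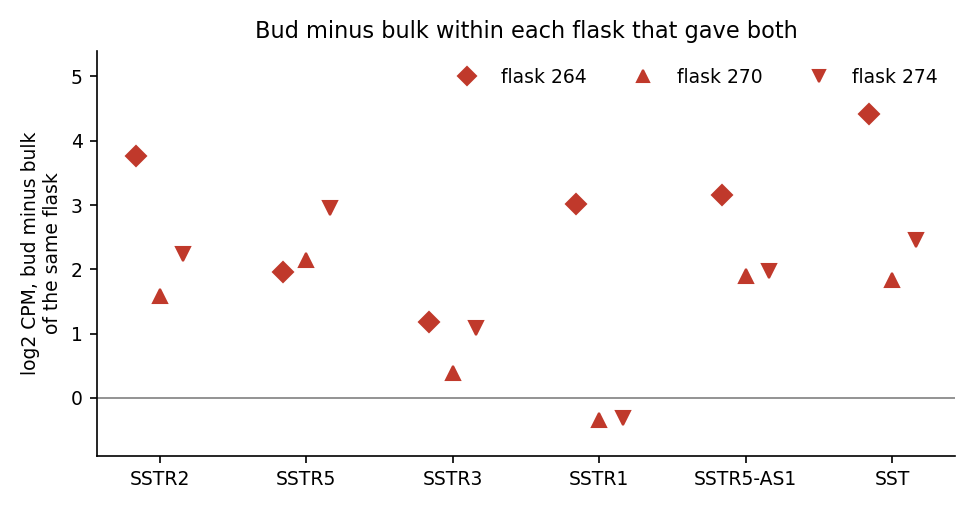
Difference in log2 CPM (0.5 added to each count), bud minus bulk, in each of the 3 flasks that gave both, for 4 receptors, SSTR5-AS1 and SST. SSTR1 is at 3.01 in flask 264 and at -0.34 and -0.32 in the others, and the other 5 genes are above 0 in all 3 flasks.

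Bulk RNA cannot tell a larger share of cells of a type from more RNA per cell. Several marker lists moved with the receptors, and their part in the receptor differences was not tested. Their counts stand against the 23.4% of all genes tested that were higher and the 23.8% that were lower. Of 15 islet endocrine markers 11 rose and none fell, and their summed level was 13131 to 24411 CPM in buds and 2394 to 9688 CPM in bulks. The 4 that did not pass were INS (log2 fold change 0.69), INSM1 (0.41), NEUROD1 (0.11) and GCG (-0.47). Bud minus bulk in flasks 264, 270 and 274 was 2.63, -0.43 and 0.51 for INS and 2.15, -0.14 and -0.29 for INSM1 (log2 scale). It was 2.0, -0.83 and -1.29 for NEUROD1 and 2.39, -1.76 and -0.76 for GCG. All 4 were thus higher in the bud of flask 264 and lower in the bud of flask 270. All 8 delta cell markers, a list that like the first holds SST and PCSK1, rose, with sums of 4753 to 8778 CPM in buds and 442 to 1623 CPM in bulks. Most of these sums is SST alone, at 4268 to 8324 CPM in buds and 389 to 1582 CPM in bulks. CHGA, the largest member of the islet endocrine list, had 5553 to 10774 CPM in buds and 1207 to 4208 CPM in bulks. All 11 neuron markers also rose, with sums of 2205 to 3458 CPM in buds and 437 to 756 CPM in bulks. Of 10 markers of pancreatic progenitor epithelium 9 fell and none rose, with sums of 611 to 861 CPM in buds and 1631 to 2207 CPM in bulks. All 8 cell cycle genes fell, with sums of 119 to 143 CPM in buds and 535 to 699.5 CPM in bulks. Of 9 mesenchyme markers 8 were tested, and 2 rose and 2 fell, near the share of all genes, with sums of 42.3 to 123 CPM in buds and 31.3 to 96.1 CPM in bulks. Of 8 endothelial and blood markers 7 were below the expression filter, and HBG1 and HBA1 had no count in any library. The 1 tested, KDR of endothelium, was higher in buds at 5.82 to 9.03 CPM against 0.989 to 2.38 CPM in bulks (edgeR adjusted p = 0.000467). The summed level, most of it KDR, was 6.28 to 10.1 CPM in buds and 1.32 to 2.99 CPM in bulks. PECAM1, also of endothelium, had 0 CPM in buds and 0 to 0.32 CPM in bulks. CDH5, TEK, CLEC14A and PTPRC averaged higher in buds, at no more than 0.803 CPM in any library.

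Per kilobase of annotated exon, SSTR2 was the most abundant receptor in every library. It had 81.5 ± 15.5 CPM per kilobase in buds (SD, n = 3) and 13.7 ± 6.13 in bulks (SD, n = 5). SSTR1 followed with 11.2 ± 4.73 CPM per kilobase in buds and 7.59 ± 4.21 in bulks. SSTR5 had 4.54 ± 1.04 in buds and 0.933 ± 0.385 in bulks, and SSTR3 had 1.74 ± 0.257 in buds and 0.893 ± 0.232 in bulks. In buds the ranges of these 4 receptors did not overlap. In bulks those of SSTR2 and SSTR1 overlapped, as did those of SSTR5 and SSTR3, which cannot be ordered. With coding length in place of exon length the order was the same in buds, while in bulks SSTR3 averaged 3.33 and SSTR5 2.31 CPM per kilobase.

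The make-up of the family differed by library. SSTR2 held 79.1 to 87.5% of receptor CPM per kilobase in the 3 buds and 51.0 to 64.6% in the 5 bulks. SSTR1 accounted for 7.25 to 14.2% in buds and for 18.2 to 42.8% in bulks. The SSTR5 share lay between 3.74 and 5.18% in buds and between 1.62 and 13.1% in bulks, where the bulk of flask 264 was the highest. The sum over the 5 receptors was 99.0 ± 18.6 CPM per kilobase in buds and 23.2 ± 9.84 in bulks, the lowest bulk being that of flask 264 (11.1). With coding length in place of exon length the shares were 88.6 to 93.7% in buds and 66.8 to 77.8% in bulks for SSTR2, 4.09 to 8.4% in buds and 12.2 to 29.6% in bulks for SSTR1, and 1.4 to 2.01% in buds and 0.681 to 5.8% in bulks for SSTR5. These shares and sums are descriptions without a test.

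**Figure D3:**
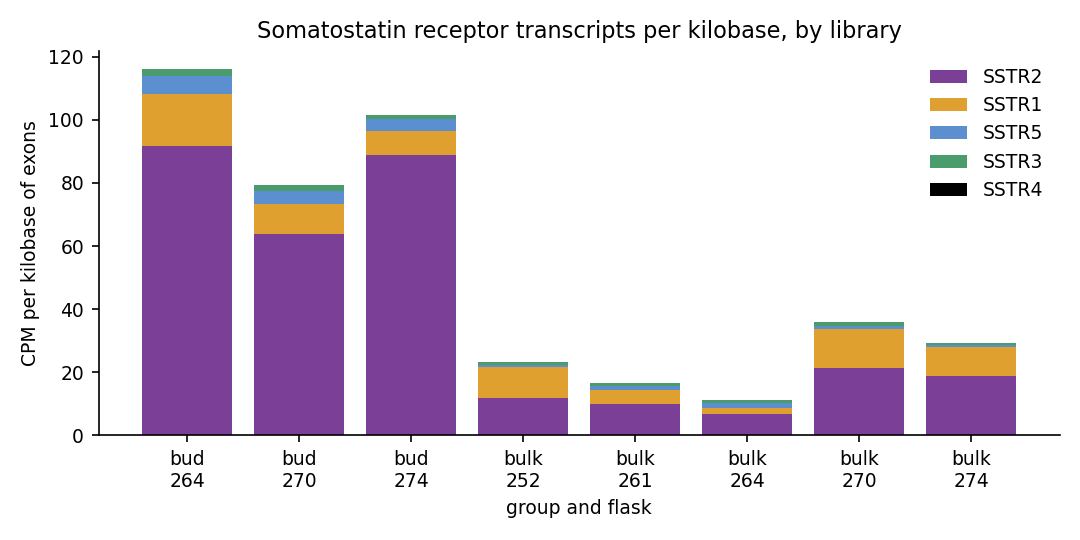
Stacked CPM per kilobase of annotated exon for the 5 receptor genes in each library, buds on the left and bulks on the right. SSTR2 is the largest part of every bar, and the 3 buds stand at 79.2 to 116 in sum against 11.1 to 35.8 in the 5 bulks.

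Whether the receptors differed from each other in how they moved was asked with the log2 ratio of their CPM, over 6 pairs of the 4 tested receptors. SSTR1 over SSTR2 was -3.76 ± 0.59 in buds (SD, n = 3) and -1.83 ± 0.54 in bulks (SD, n = 5), a difference of -1.94 with no overlap (two-sided exact permutation test, p = 0.0179, adjusted over the pairs 0.0536). Within flasks 264, 270 and 274 it differed by -0.75, -1.92 and -2.55, bud minus bulk. SSTR2 over SSTR3 was 6.28 ± 0.32 in buds and 4.58 ± 0.66 in bulks, a difference of 1.70 with no overlap (exact permutation p = 0.0179, adjusted 0.0536), and by 2.58, 1.19 and 1.16 within the 3 flasks. SSTR3 over SSTR5 differed by -1.36 with no overlap (exact permutation p = 0.0357, adjusted 0.0714), and by -0.77, -1.76 and -1.87 within flasks. These 3 ratios had 1 sign each in all 3 flasks. SSTR1 over SSTR5 differed by -1.6 (exact permutation p = 0.161, adjusted 0.241), and by 1.06, -2.48 and -3.27 within flasks. For SSTR1 over SSTR3 the difference was -0.24 (exact permutation p = 0.696, adjusted 0.696), with 1.83, -0.72 and -1.4 within flasks. In both of these pairs the groups overlapped and the sign changed between flasks. SSTR2 over SSTR5 differed by 0.34 (exact permutation p = 0.679, adjusted 0.696), a direction that turned to -0.07 without the bulk of flask 264 and that was 1.81, -0.56 and -0.72 within flasks. No pair passed after adjustment in this test, which reassigns all 8 libraries without regard to flask and cannot give a p below 0.0179.

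Of the ligands, SST itself had 8324, 4605 and 4268 CPM in the buds of flasks 264, 270 and 274, against 636, 1582, 389, 1284 and 773 CPM in the bulks in flask order. The groups did not overlap, and as for SSTR2 and SSTR1 the lowest bulk was that of flask 264. The SST log2 fold change was 2.62 ± 0.40 (edgeR adjusted p = 0.000395). Set against SSTR2 in the same library, there were 11.5, 9.21 and 6.11 SST counts per SSTR2 count in buds, against 6.87, 20.2, 7.34, 7.69 and 5.21 in bulks. These ratios overlapped, with the bulk of flask 261 far above the rest. CORT, for the related peptide cortistatin, was below the expression filter, at 0.809 to 1.64 CPM in buds and 0 to 1.06 CPM in bulks. It shares 622 of its 914 exon bases with the read-through gene CENPS-CORT, so its counts are uncertain.

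Of 66 measured genes in 10 lists, which cover the ligands, the pathway and related receptors, 54 were tested. Of these, 30 rose and 4 fell, where 23.4% of all genes tested were higher and 23.8% lower. The median log2 fold change was 0.90, against -0.02 over all genes tested. Under the flask block 25 rose and 5 fell, where 19.5% of all genes rose and 3384 of 16641 fell. The counts of each list below stand against the shares of 23.4% and 23.8%. Among alpha subunits of inhibitory G proteins 4 of 5 rose. GNAO1, the Go subunit abundant in neurons and endocrine cells, had 141 ± 8.77 CPM in buds (SD, n = 3) and 29.9 ± 13.9 in bulks (SD, n = 5), a log2 difference of 2.22 ± 0.31 (edgeR adjusted p = 0.000233). GNAZ rose by 1.61 ± 0.17 (4.31e-05), GNAI2 by 0.93 ± 0.10 and GNAI1 by 0.80 ± 0.17. GNAI3 had 0.26 ± 0.12 (edgeR adjusted p = 0.0936).

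Of 12 tested beta and gamma subunits, the other part of the G protein, 8 rose and 1 fell. The gamma subunit GNG3 had 59.1 ± 19.8 CPM in buds and 3.64 ± 1.73 CPM in bulks, a log2 difference of 3.97 ± 0.33 (edgeR adjusted p = 1.89e-05), and GNG2 rose by 2.75 ± 0.45. The 1 that fell was GNG5, at -1.86 ± 0.24 (edgeR adjusted p = 0.000126). GNB1, the most abundant of the list, averaged 1006 ± 40.9 CPM in buds and 496 ± 35.7 CPM in bulks.

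Among effectors, 5 of 8 tested adenylyl cyclases, the enzymes that make cyclic AMP, rose and 1 fell. ADCY2 had 114 ± 5.85 CPM in buds and 25.0 ± 6.42 CPM in bulks, a log2 difference of 2.18 ± 0.18 (edgeR adjusted p = 1.8e-05), and ADCY1 rose by 1.84 ± 0.25. ADCY6 fell by 0.75 on the log2 scale (edgeR adjusted p = 0.00228). Of 3 tested G protein-gated potassium channel genes, KCNJ6 rose by 2.19 ± 0.33 (edgeR adjusted p = 0.000355), while KCNJ3 had -0.38 ± 0.40 (0.456).

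All 4 pore subunits of voltage-gated calcium channels in the list rose, by 2.34 ± 0.32 for CACNA1B, 2.26 ± 0.34 for CACNA1C and 2.23 ± 0.25 for CACNA1D. CACNA1A had 1.20 ± 0.38 (edgeR adjusted p = 0.0239), which did not pass under the flask block (1.06, 0.217). Leaving out the bud of flask 264 gave 0.60 (edgeR adjusted p = 0.183), and leaving out the bulk of flask 252 gave 1.13 (0.053).

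None of the 3 phosphatases linked to these receptors passed in the edgeR fit of all 8 libraries without a block: PTPN6 had -0.44 (edgeR adjusted p = 0.0748), PTPN11 0.28 (0.0673) and PTPRJ 0.20 (0.293). Under the flask block PTPN6 passed at -0.47 (edgeR adjusted p = 0.0461), and with flask as a random effect both PTPN6 and PTPN11 passed (limma adjusted p = 0.0246 and 0.026). PTPN11 also passed with DESeq2 (adjusted p = 0.0362), and with edgeR without scaling factors (0.0332) or without the bud of flask 270 (0.0275). Among 6 receptor kinases and arrestins, which switch off and internalise active receptors, GRK3 rose by 1.30 ± 0.19 (edgeR adjusted p = 0.000352), and ARRB2 fell by 0.91 (0.00159). GRK5 had -0.88 ± 0.32 (edgeR adjusted p = 0.0433), a call lost without the bulk of flask 252, 261 or 270 or any 1 bud (0.0501 to 0.136). The GRK5 call was also lost without scaling factors (edgeR adjusted p = 0.0564) and with limma-voom (limma adjusted p = 0.0573). With the block restricted to the 3 flasks with both samples it did not pass either (edgeR adjusted p = 0.0592). Of 6 PDZ scaffold proteins known to bind receptor tails or their partners, 3 rose: SHANK1 by 3.24 ± 0.29, DLG4 by 1.61 ± 0.24, and SHANK3 by 0.66 ± 0.21 (edgeR adjusted p = 0.0243, lost at 0.0751 with the flask block and at 0.0522 to 0.068 with 1 of bulks 252 and 261 or of buds 264 and 274 left out).

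Of 12 measured receptors for opioid, galanin, kisspeptin, melanin-concentrating hormone and other peptides, the nearest relatives of the family, 6 were tested, 3 rose and none fell. MCHR1, a receptor for melanin-concentrating hormone, had 28.2 ± 2.95 CPM in buds and 1.53 ± 1.02 CPM in bulks, a log2 difference of 4.12 ± 0.36 (edgeR adjusted p = 2.17e-05). The delta opioid receptor OPRD1 had 1.62 ± 0.42 (edgeR adjusted p = 0.00888), which the flask block lost (0.0691), and GALR1, a galanin receptor, rose by 1.06 ± 0.28 (0.00965).

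**Figure D4:**
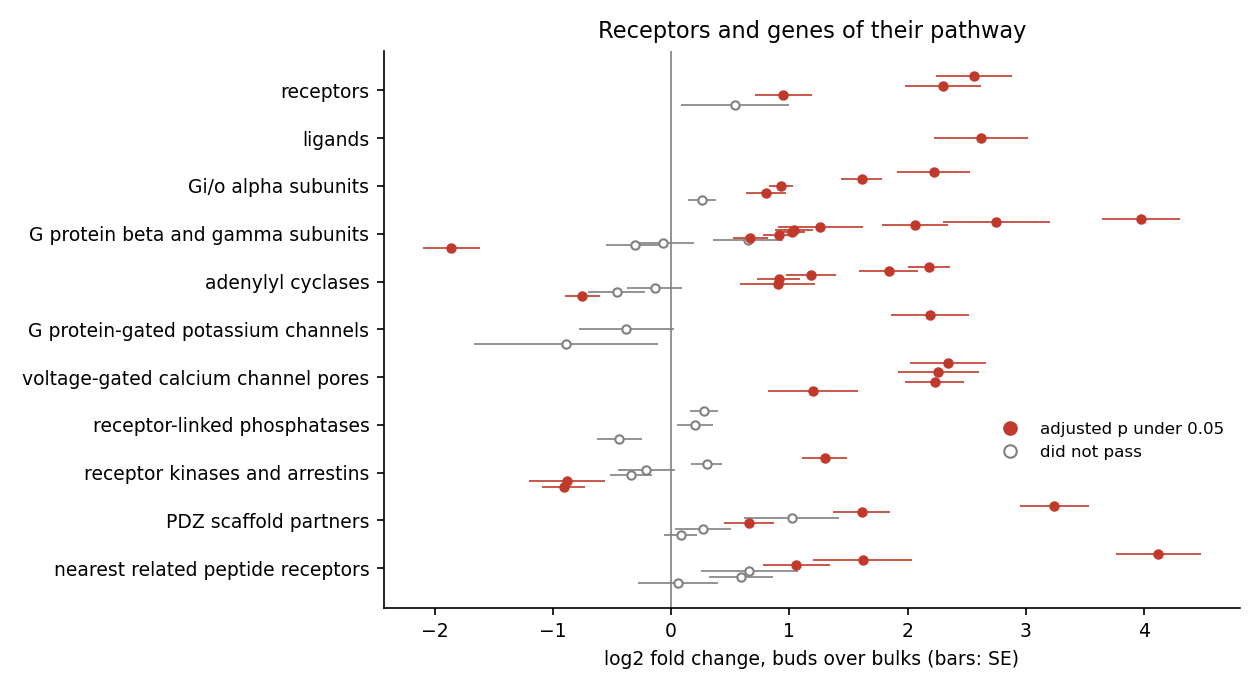
Log2 fold change, buds over bulks, with SE bars for the 4 tested receptors and the tested genes of 10 lists, filled red where the edgeR adjusted p was under 0.05. SSTR2 and SSTR5 sit at 2.56 and 2.30, and of 54 genes in the lists 30 are red to the right of 0 and 4 to the left.

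Genes next to the receptors on the chromosome did not move as a group. COG1, a Golgi gene 16422 bases from SSTR2, rose by 0.91 ± 0.13 (edgeR adjusted p = 0.000252), and SLC39A11, a zinc transporter gene on the other side, had -0.74 ± 0.23 (0.0205; 0.102 and 0.0975 without the buds of flasks 270 and 274). TTC6, beside SSTR1, fell by 1.58 (0.00107), while CLEC14A on its other side was below the expression filter. C1QTNF6 (-0.21 ± 0.18) next to SSTR3 and SOX8 (-0.12 ± 0.20) next to SSTR5 did not pass. Of the neighbours of SSTR4, the transcription factor gene FOXA2 had -0.03 ± 0.13, with a sign that changed in 4 of 18 alternative settings, and THBD -0.88 ± 0.41 (edgeR adjusted p = 0.103, or 0.039 with the flask block). RAC2 beside SSTR3 and C1QTNF8 beside SSTR5 were below the filter.

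The protein-coding genes whose pattern lay closest to each receptor were found by the root mean square difference of log2 CPM, each gene centred on its mean, over the 8 libraries and 11947 genes with a mean of at least 5 CPM. For SSTR2 they were FGF14, which modulates sodium channels (0.15), the potassium channel gene KCNMA1 (0.16), MANEAL (0.16), TMEM178B (0.17) and RNF182 (0.17). For SSTR5 they were CACNG4, CABP7, RTN4RL2, TNFAIP2 and IGSF21, at a greater distance of 0.28 to 0.35. For SSTR3 they were VEGFB, TM7SF2, VPS37D, PER1 and SCN8A, at 0.14 to 0.17.

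SSTR1 had another set, CACNA2D1, CFAP126, INSM1, LIN7A and CFAP77, at 0.25 to 0.34. INSM1, a transcription factor of endocrine precursors, had 542 ± 78.0 CPM in buds (SD, n = 3) and 408 ± 201 CPM in bulks (SD, n = 5). Within flasks it stood at 2.15, -0.14 and -0.29, bud minus bulk, in flasks 264, 270 and 274. That these genes resemble SSTR1 in each flask follows from how they were chosen. The points share libraries and depth, and these distances are descriptions.

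**Figure D5:**
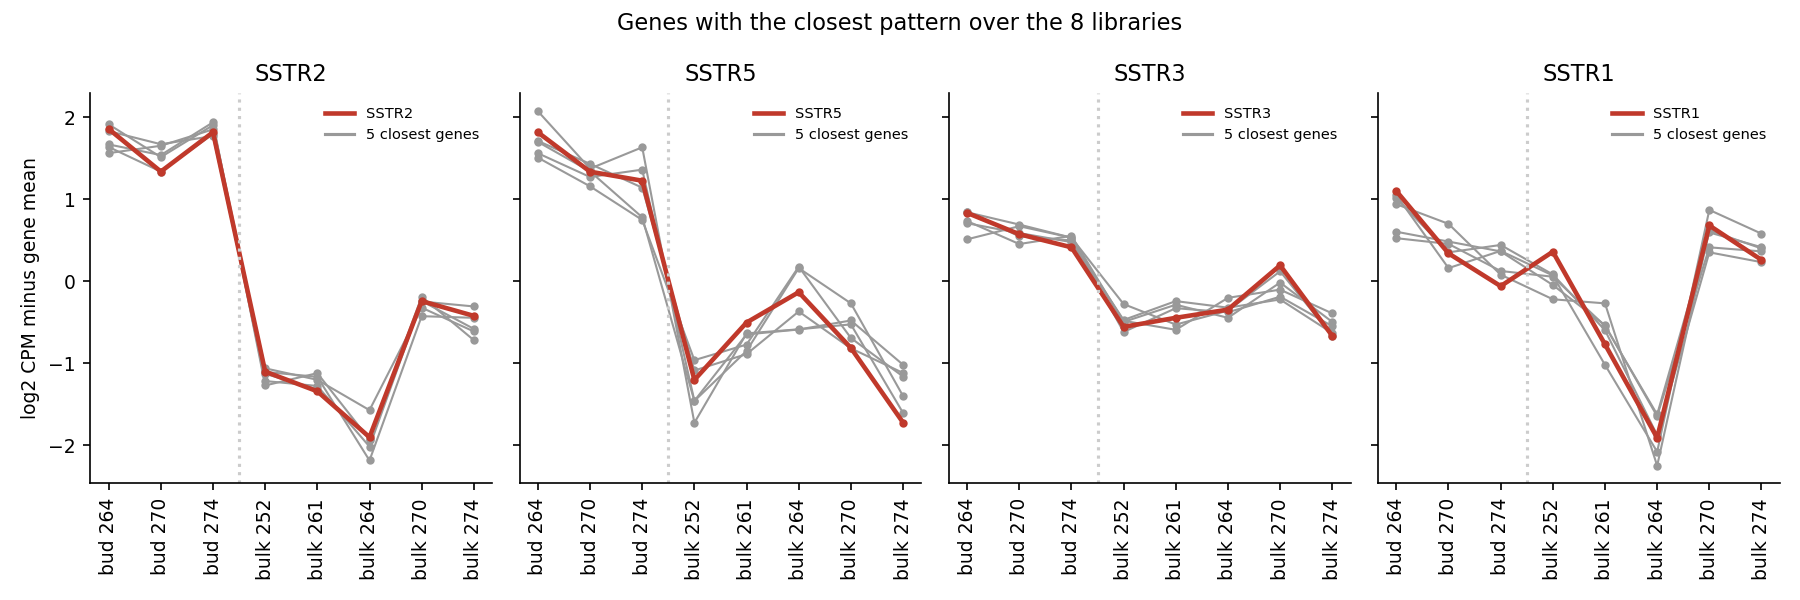
Log2 CPM (0.5 added to each count) minus the gene's own mean in each library, for 4 receptors (red) and the 5 protein-coding genes closest to each (grey), buds left of the dotted line and bulks right of it. SSTR2, SSTR5 and SSTR3 stand higher in all 3 buds than in any bulk, while SSTR1 is lowest in the bulk of flask 264 and overlaps between groups.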

How the data were processed

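The authors deposited expected counts per Ensembl gene for 8 polyadenylated RNA libraries. STAR alignment to GRCh38 and RSEM quantification at default settings made them, per the series' design text and the labels. Nothing here states versions, the annotation release or strand use. RSEM divides shared reads, and 11.5% of values were not whole. Library totals were 7477408 to 12508039 counts in buds and 6083973 to 10626052 in bulks. Of 58233 identifiers, 57392 (98.6%) matched GENCODE release 44. Promoter sequences are from RefSeq (GRCh38.p14).

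Counts were rounded and fitted with edgeR 4.0.16 (R 4.3.3): TMM, filterByExpr (10 counts, total of 15), quasi-likelihood F test, no covariate. Alternatives were DESeq2 1.42.0, limma-voom (limma 3.58.1), other scalings and filters, flask as block or random effect, and each library left out. Same-flask deviations correlated at 0.123, 0.134 and 0.295, each above 0.1, and the labels give the flasks, so flask numbers pair the samples. Pairs from different flasks correlated at -0.245 to 0.194, which includes values as high as 2 of the same-flask ones. Centring on means of so few libraries itself lowers the different-flask values, so these correlations cannot decide the pairing. Pairs of libraries of a group differed beyond sampling noise (chi-square per gene at least 9.28). Tested on simulated counts for the 16641 genes of buds versus bulks, the fit called 46.0% of genes simulated with a log2 fold of 1, called 88.0% of those with 2, and 6.94% of its calls were unchanged genes. That simulation changed only 100 genes at each fold and held no flask effect, whereas 47.2% of genes passed in the data. Its rates therefore need not hold for the real comparison. Counting limits cover counting error only. Receptors, lists and tests were chosen with earlier results of these data known. Genes named are the receptors, their ligands and neighbours, the 2 largest called changes of each pathway list, the 5 closest patterns, and a few others of the lists chosen after their values were seen. One listed peptide receptor is not analysed here.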

Additional observations from a re-analysis of the deposited data

Results flagged for a closer look

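Among 70 quantities compared over the 5 bulks, 4 showed 1 library whose gap to its nearest neighbour exceeded 0.71 of the whole range. Chance gives such a gap in about 1 of 20 groups, so 4 of 70 is near the chance rate. In the bulk of flask 261 there were 20.2 SST counts per SSTR2 count, against 5.21 to 7.69 in the other bulks. The same bulk held all of the SSTR4 signal of bulks, 0.205% of receptor CPM per kilobase, from 1 count. With 0 in the other bulks that gap is the whole range whatever the count. ARRB2, an arrestin gene, stood at 56.9 CPM there, against 41.4 to 45.6 in the other bulks. TNFAIP2, 1 of the genes closest in pattern to SSTR5, stood at 10.9 CPM in the bulk of flask 264, against 4.27 to 5.95 in the other bulks.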

How the results depend on the processing

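SSTR2 and SSTR5 passed in all 18 alternative fits, with log2 fold changes of 2.39 to 2.78 and 2.10 to 2.50, and SSTR1 passed in none (0.16 to 0.79). SSTR3 passed in 17 of 18 (0.83 to 1.13) and was lost with flask as a replicate block (0.87, edgeR adjusted p = 0.0515). With that block restricted to the 3 flasks with both samples it passed (0.88, edgeR adjusted p = 0.0478). The block changed no other receptor call. Leaving out 1 library gave adjusted p of 6.16e-05 to 0.00068 for SSTR2, 0.000101 to 0.00107 for SSTR5, 0.00316 to 0.0359 for SSTR3 and 0.188 to 0.825 for SSTR1. SSTR4 did not pass without the filter (edgeR adjusted p = 0.904). The ratio of SSTR2 over SSTR5, 0.34, reversed to -0.07 without the bulk of flask 264 and ran up to 0.70 with another library left out, never past the threshold; the cause was not tested. Within the 3 flasks its paired mean was 0.18. FOXA2, at -0.03, ran from -0.08 to 0.09 with 1 library left out, and had 0.01 without scaling factors and within the 3 flasks, 0.00 without the bulk of flask 270 and 0.09 without the bud of flask 274. Over the 59 other named genes, 1024 of 1062 alternative values kept their direction and side of the threshold. With 1 library left out, the pathway lists held 27 to 31 genes higher and 3 or 4 lower. Levels per kilobase depend on the length used. SSTR4 and the low neighbours are limited by depth.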
